A study of Homo sapiens with 3 samples.

Results

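Sharply focused binding sites of the PRCC-TFE3 fusion are the 1354 of 55651 paired ChIP-seq peaks, or 2.43%, whose focus fraction was 0.9 or more in both replicates. PRCC-TFE3 joins part of PRCC to TFE3, a basic helix-loop-helix leucine zipper transcription factor that binds E-box elements and drives lysosome and autophagy genes. In TFE3-rearranged renal cell carcinoma the fusion keeps the DNA-binding part of TFE3. When a factor is held by cross-linking at a single point on DNA, sequenced fragment ends on the plus strand gather upstream of that point and those on the minus strand gather downstream of it. The focus fraction is read here as the share of tags that lie on the side their strand predicts, from the place of its column in the lists, whose formula was not given in the sources used here. It was not a share of the printed tags of the peak alone, since peaks of 8 tags in replicate 1 reached 0.933 and peaks of 6 tags in replicate 2 reached 0.9.

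Chromatin immunoprecipitation sequencing (ChIP-seq) was performed in HK-2 cells, an established human renal proximal tubule line, that carried a doxycycline-inducible HA-PRCC-TFE3 transgene. All samples, input DNA included, came from cells given 0.2 µg/mL doxycycline for 24 h, and the chromatin was cut with micrococcal nuclease. There were 2 ChIP libraries of the same group, with 12235754 and 7418533 tags, and 1 input DNA library with 21695224 tags, all totals estimated from the deposited lists. Expression depended on an added transgene and not on the rearranged endogenous gene, and cells without doxycycline were not analysed here, so every value refers to induced cells and input DNA is the only background.

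On chromosomes 1 to 22 and X, 55651 BED peaks of replicate 1 overlapped a BED peak of replicate 2, each with a single partner. The 1354 sharply focused sites were taken from these. The fraction was under 0.8 in both replicates at 13320 pairs, or 23.9%, which are called less focused sites and serve as the comparison. The remaining 40977 pairs lay between these limits or differed between replicates. The lists held 84243 and 63530 BED peaks on these chromosomes. Because the focus fraction chose the sites, and because it is made from the same tags as the measures below, the comparisons are descriptions and no test was run on them. Regions are not replicates either, and with 2 libraries of 1 group no permutation over samples could reach p = 0.05. Each value is therefore given per replicate, and ratios with the SD over both.

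The sharply focused sites were the upper end of the distribution of the focus fraction. In replicate 1 the focus fraction of all BED peaks had a median of 0.80, an interquartile range from 0.745 to 0.857 and a maximum of 0.983. In replicate 2 the median was 0.81, the interquartile range ran from 0.75 to 0.867 and the maximum was 0.987. Within the sharply focused sites the medians were 0.923 and 0.917. A total of 700 of these sites had a lower-of-both fraction from 0.9 to under 0.91, just inside the limit, and 315 of them had exactly 0.9. Just outside it, 347 pairs had a lower fraction from 0.89 to under 0.9 and a higher one of at least 0.9. The median narrowPeak widths were 276 bp and 259 bp inside and 303.5 bp and 289 bp outside in replicates 1 and 2, and the median tags were 19 and 12 inside and 26 and 17 outside. The centres of the paired peaks were a median of 25 bp apart inside and 21 bp apart outside.

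The share of peaks that reached 0.9 went up and down with the number of tags in the peak, and the cause was not tested. In replicate 1, 14.7% of peaks with 10 tags reached 0.9, compared with 8.58% of those with 15 tags and 16.6% of those with 18 tags. In replicate 2 the share was 5.85% at 7 tags, 21.5% at 9 tags, 10.1% at 14 tags and 17.5% at 18 tags. The maxima and minima thus fell at similar tag numbers in both libraries. Because of this relation between the rule and the tag number, comparisons within classes of tags are given beside those over all sites.

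**Figure D1:**
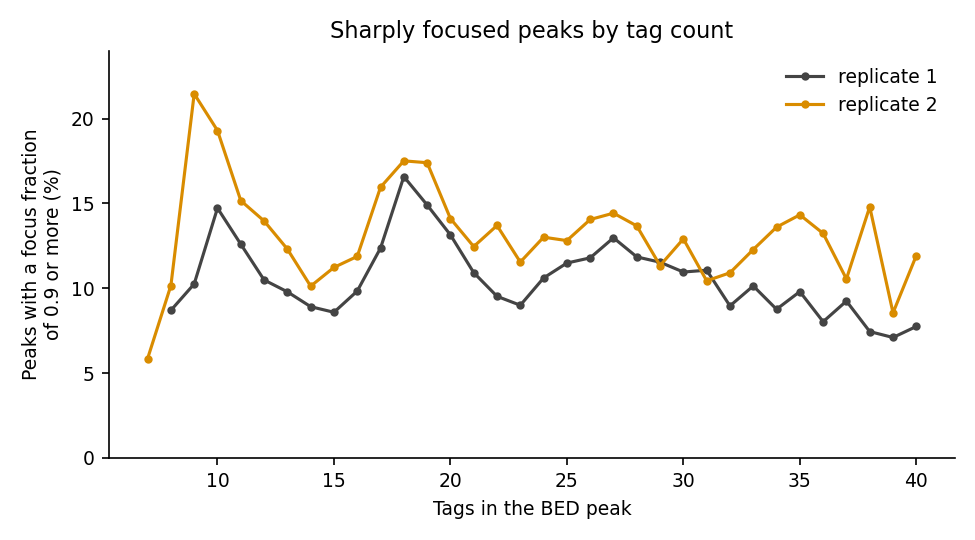
Share of BED peaks with a focus fraction of 0.9 or more (vertical axis, percent) by the number of tags in the peak (horizontal axis), for replicate 1 (grey) and replicate 2 (orange), for up to 40 tags and tag counts with at least 100 peaks. Both lines have maxima at 9 or 10 and at 18 tags, with a minimum at 14 or 15 tags between them.

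The next question was how far the replicates named the same sites as sharply focused. Of the paired peaks with 0.9 or more in replicate 1, 24.2% were also at 0.9 or more in replicate 2 (95% Wilson interval, 23.1% to 25.4%). This compares with 13.9% of all paired peaks in replicate 2 and with 9.10% of those that were under 0.8 in replicate 1 (8.75% to 9.47%). In the other direction, 17.5% of the peaks that were sharp in replicate 2 were sharp in replicate 1 (16.7% to 18.4%), compared with 10% of all pairs and 6.45% of those under 0.8 in replicate 2 (6.15% to 6.77%). These shares use the values that chose the sites and are given as a description. Most peaks that were sharp in one library were thus not sharp in the other.

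Agreement was closer where more tags were present. With 10 to 19 tags in the weaker replicate, 24.1% of the peaks that were sharp in replicate 1 were sharp in replicate 2 (22.6% to 25.6%), and with 30 to 49 tags 34.1% were (28.9% to 39.8%). The shares over all pairs in these classes were 14.6% and 11.4%. Spearman's rho between the focus fractions of both replicates was 0.283 over all 55651 pairs. It was 0.156 over 11053 pairs with fewer than 10 tags in the weaker replicate, 0.262 with 10 to 19 tags, 0.397 with 20 to 29 tags, 0.518 with 30 to 49 tags and 0.647 over the 581 pairs with at least 50. These are correlations across sites that share 2 libraries and are given without a test. With at least 50 tags, 8 of the 20 peaks that were sharp in replicate 1 were sharp in both, or 40% (21.9% to 61.3%). The share over all pairs of this class was 9.64%.

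Sharply focused sites had about as many tags as the comparison sites. In replicate 1 their median was 21 tags (interquartile range, 16 to 30), compared with 22 tags at less focused sites (16 to 32). In replicate 2 both medians were 14 tags, with interquartile ranges of 10 to 20 and 10 to 21. The ratio of medians was 0.977 ± 0.0321 (SD, n = 2), so it differed from 1 by less than the spread between replicates. The highest values in replicates 1 and 2 were 84 and 76 tags among the 1354 sharply focused sites. They were 245 and 201 tags among the 13320 less focused sites. The sets differ in size, and maxima were not compared at equal numbers of sites. The sharply focused site with these tags had 22 and 26 input tags in its windows, and the less focused site had 33 in each. Fold enrichment over input at the narrowPeak summit, as given by the authors' peak caller, differed little. Its medians were 11.2 and 9.41 at sharply focused sites and 11.02 and 8.98 at less focused sites, a ratio of 1.03 ± 0.0193. The side of 1 on which this ratio lay depended on the choice of sites. It was 1.12 against sites under 0.7, but 0.946 with at least 20 tags in both replicates. With sites chosen in 1 replicate and measured in the other it was 0.924.

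In contrast, the narrowPeak peaks at sharply focused sites were narrower. A narrowPeak peak of the same sample was present at 1313 of the 1354 sites in replicate 1 and at 1303 in replicate 2, or 97.0% and 96.2%. These shares were lower than at less focused sites, with 99.3% and 98.4%, and over all pairs, with 99.1% and 97.5%. No narrowPeak peak was present in either replicate at 1.92% of sharply focused sites, 0.248% of less focused sites and 0.406% of all pairs. The median width in replicate 1 was 279 bp (interquartile range, 238 bp to 323 bp), compared with 474 bp at less focused sites (337 bp to 646 bp). In replicate 2 it was 264 bp (229 bp to 311 bp), compared with 418 bp (293 bp to 582 bp). The ratio of medians was 0.610 ± 0.0304, and it was below 1 on all 23 chromosomes in both replicates. All pairs together had median widths of 356 bp and 322 bp. The width exceeded 500 bp at 1.83% of sharply focused sites in replicate 1 (95% Wilson interval, 1.23% to 2.71%) and 1.305% in replicate 2 (0.816% to 2.08%). For less focused sites these shares were 45.5% (44.6% to 46.3%) and 36.4% (35.6% to 37.2%), and over all pairs 22.6% and 16.6%. Broad peaks of 1 kb or more held 0.228% of sharply focused sites in replicate 1 (3 sites; 0.0777% to 0.670%) and 0.153% in replicate 2 (2 sites; 0.0421% to 0.558%). The shares were 4.92% and 2.56% at less focused sites and 1.91% and 0.957% over all pairs.

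The difference in width was present at every tag class examined. Among peaks of 10 to 19 tags, the median widths in replicate 1 were 235 bp at sharply focused sites and 333 bp at less focused sites. With 20 to 29 tags they were 285 bp and 491 bp, with 30 to 49 tags 327 bp and 631 bp, and with at least 50 tags 394 bp and 732 bp. Replicate 2 had the same order, from 253 bp and 383 bp with 10 to 19 tags to 367 bp and 669 bp with 30 to 49 tags. Averaged over the classes from 10 tags up, weighted by the number of sharply focused sites, the ratio of medians was 0.618 ± 0.00401, close to the ratio without matching.

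**Figure D2:**
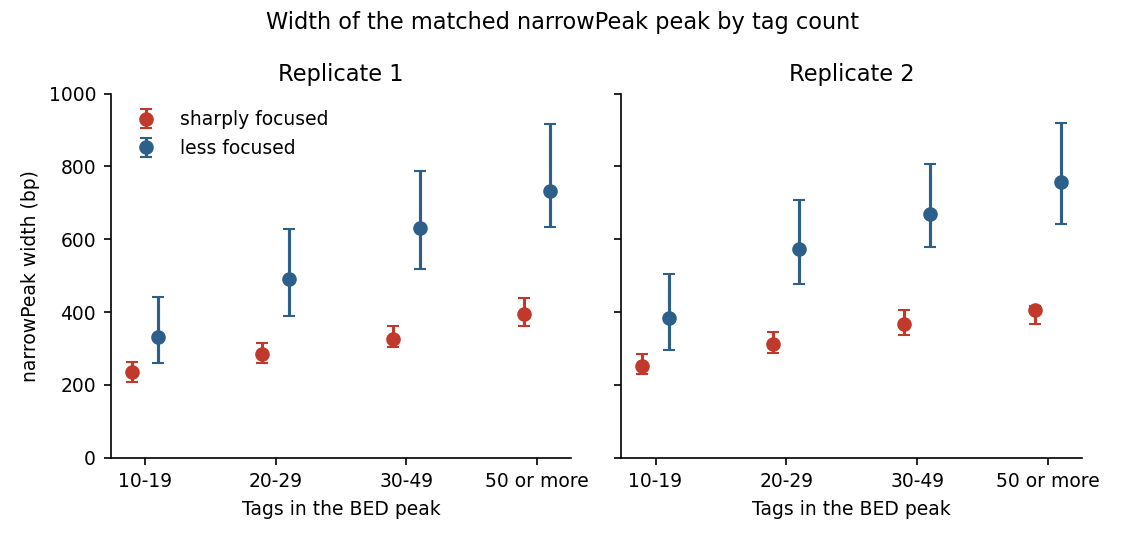
Width of the matched narrowPeak peak (vertical axis, bp) by the number of tags in the BED peak (horizontal axis) for sharply focused (red) and less focused sites (blue) in each replicate. Points are medians and bars are interquartile ranges. In every class the sharply focused median lies lower, for example 327 bp and 631 bp at 30 to 49 tags in replicate 1, and only 8 sharply focused sites of replicate 2 had at least 50 tags.

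Tags around the peaks were also fewer. The local tag density is the tag count of a peak divided by its fold over the local background and by the window length. It had medians of 5.41 and 3.27 tags per kb at sharply focused sites in replicates 1 and 2. Over all pairs they were 7.66 and 4.60 tags per kb, and at less focused sites 9.09 and 5.52 tags per kb. The ratio was 0.594 ± 0.00198, and it was below 1 on all 23 chromosomes, from 0.483 to 0.837 in replicate 1 and from 0.466 to 0.766 in replicate 2. Since the tags in the peak were alike, the fold over the local background was 1.64 ± 0.0134 times as high, with medians of 19.7 and 20.5 compared with 11.9 and 12.6. The local density can include neighbouring peaks and the flanks of wide ones, and how wide a surrounding the authors used was not given in the sources used here.

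Sharply focused sites lay farther from other peaks. The median distance between centres to the nearest other BED peak of the same list was 6650.5 bp in replicate 1 and 9883 bp in replicate 2, compared with 4316 bp and 5783.5 bp for less focused sites. This gave a ratio of 1.62 ± 0.119, or 1.72 ± 0.0780 when tag classes were matched. The median distances over all pairs were 5028 bp and 6771 bp. Another peak lay within 1 kb of 10.9% of the sharply focused sites in replicate 1 (95% Wilson interval, 9.38% to 12.7%) and 9.31% in replicate 2 (7.87% to 10.97%). For less focused sites the shares were 18.4% (17.8% to 19.1%) and 15.9% (15.3% to 16.5%), and over all pairs 15.5% and 12.9%. The nearest peak was more than 20 kb away for 24.2% (21.9% to 26.5%) and 31.4% (28.97% to 33.9%) of sharply focused sites, compared with 11.7% (11.2% to 12.3%) and 18.0% (17.4% to 18.7%) of less focused sites. Among all pairs it was that far away for 15.3% and 22.3%.

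Spacing was less uniform than width. On chromosome 19 the ratio of median distances was 0.984 in replicate 1 and 0.885 in replicate 2, and on chromosome 21, which held only 6 sharply focused sites, it was 1.16 and 0.477. On the other 21 chromosomes it was above 1 in both replicates. Among peaks with at least 50 tags in replicate 1, the order was turned, with a median of 2782 bp for the 48 sharply focused sites and 4809 bp for the 971 less focused sites. In replicate 2 the corresponding medians were 12172 bp, for 8 sites, and 6641 bp, for 148 sites. When both replicates had to hold at least 20 tags, the ratio was 1.22.

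**Figure D3:**
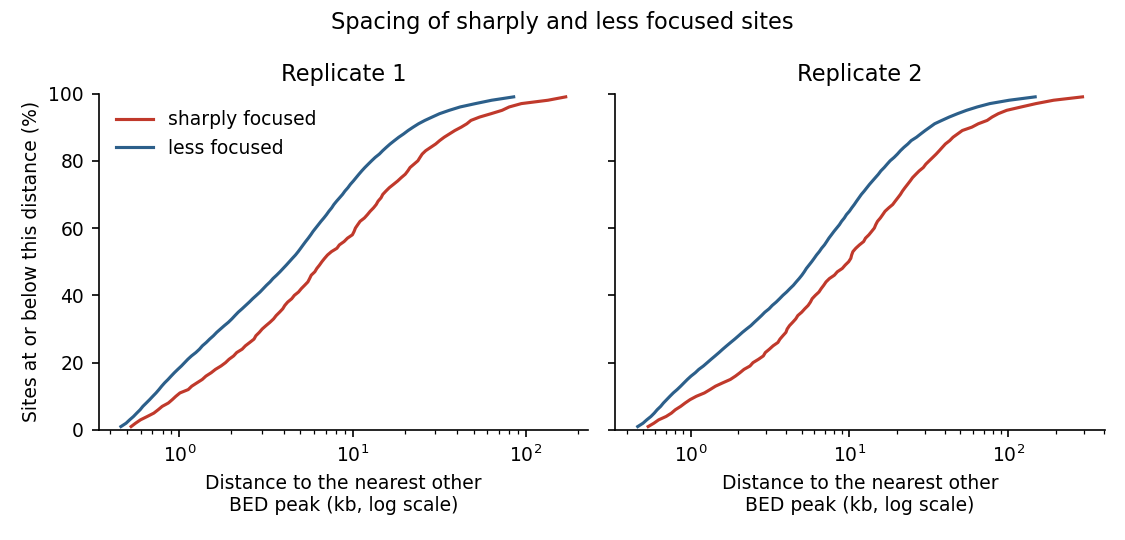
Cumulative share of sites (vertical axis, percent) by distance to the nearest other BED peak of the same list (horizontal axis, kb, log scale) for sharply focused (red) and less focused sites (blue) in each replicate. The red curves lie to the right, with medians of 6650.5 bp and 9883 bp compared with 4316 bp and 5783.5 bp.

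Sites were then grouped by the distance to their neighbour. At least 20 kb from any other peak, the median width in replicate 1 was 263.5 bp at 327 sharply focused sites and 402.5 bp at 1559 less focused sites. Their local densities were 3.37 and 5.51 tags per kb. In replicate 2 the widths at this distance were 252 bp and 366 bp and the densities 2.25 and 3.58 tags per kb. With a neighbour within 1 kb, the widths in replicate 1 were 299 bp and 498 bp, and the densities 8.99 and 11.8 tags per kb. Both differences were thus present with and without a close neighbour.

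The peak centres of both replicates lay closer together than at less focused sites. They were not closer than at pairs with fractions just under 0.9, a comparison in which tags were not matched. The centres of the paired BED peaks were a median of 23 bp apart at sharply focused sites (95% binomial interval of the median, 21 bp to 24 bp) and 35 bp apart at less focused sites (34 bp to 35 bp). The 95th percentiles were 69 bp and 126 bp. Centres lay within 50 bp of each other at 84.3% of sharply focused sites (82.2% to 86.1%) and at 65.1% of less focused sites (64.3% to 65.9%). The share over all pairs was 74.3%. The narrowPeak summits gave the same medians, 23 bp and 35 bp. Pairs with both fractions from 0.85 to under 0.9 had the same median of 23 bp as those from 0.9 to under 0.95. The former had more tags, with medians of 28 and 17 compared with 20 and 13 in replicates 1 and 2. Among sharply focused sites the median distance was 26 bp with 10 to 19 tags in replicate 1 and 18 bp with 30 to 49. The order between sharply focused and less focused sites held on all 23 chromosomes. It also held in each class from 10 tags up in both replicates. Among peaks of 30 to 49 tags in replicate 1 the medians were 18 bp and 32 bp. With at least 50 tags in replicate 2 they were 25.5 bp, for 8 sharply focused sites, and 29.5 bp. Below 10 tags the medians in replicate 1 were 38 bp, for 15 sharply focused sites, and 37 bp, and in replicate 2 they were 29.5 bp and 41 bp. Within a replicate, the narrowPeak summit was 6 bp from the BED centre in replicate 1 and 4 bp in replicate 2 in the median, compared with 8 bp and 5 bp at less focused sites. These intervals cover the number of sites only and not the spread between experiments, since there is a single pair of replicates.

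Across classes of the focus fraction, width and local density were lower in each class than in the one before it up to 0.95. Spacing was wider from 0.9 to 0.95 than under 0.7, but it did not rise at each step. Where both replicates were under 0.7, the median widths were 583 bp and 528 bp in replicates 1 and 2. They were 425 bp and 374 bp from 0.75 to 0.8, 331 bp and 316 bp from 0.85 to 0.9, and 276 bp and 259 bp from 0.9 to 0.95. Local density went from 9.90 and 6.02 tags per kb under 0.7 to 5.31 and 3.17 from 0.9 to 0.95, and the distance between centres from 43 bp under 0.7 to 23 bp from 0.85 to 0.9 and again from 0.9 to 0.95. The median distance to the nearest peak in replicate 1 was 4226.5 bp under 0.7, 4800 bp from 0.7 to 0.75 and 4380 bp from 0.75 to 0.8. It was 5233 bp from 0.8 to 0.85, 4952.5 bp from 0.85 to 0.9 and 6742 bp from 0.9 to 0.95. In replicate 2 the distances in the same classes were 5265.5 bp, 5766 bp, 5875 bp, 6947 bp, 6875.5 bp and 10094 bp. In these classes the median tags ranged from 20 to 28 in replicate 1 and from 13 to 17 in replicate 2, without following the order of the classes.

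**Figure D4:**
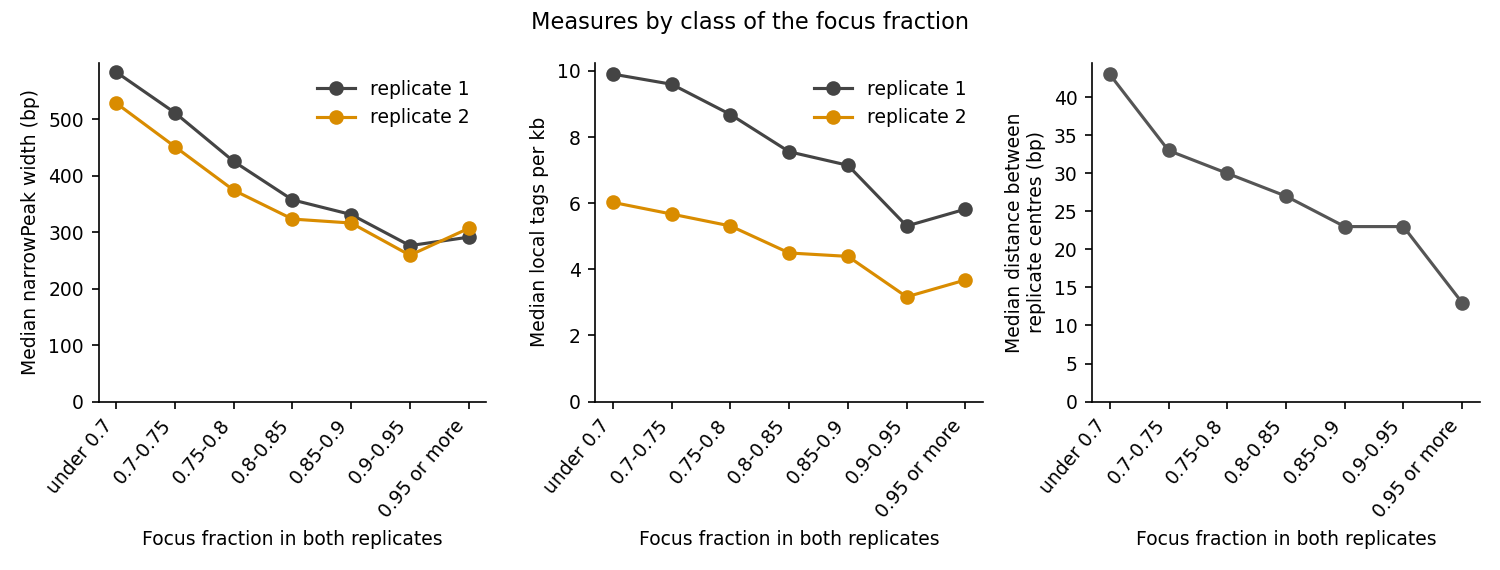
Median narrowPeak width (bp), median local tag density (tags per kb) and median distance between replicate peak centres (bp) by class of the focus fraction, for pairs whose fractions fell in the same class in both replicates. Width was 583 bp and 528 bp in the class under 0.7 and 276 bp and 259 bp in the class from 0.9 to 0.95, and the last class holds 21 sites.

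Choosing the sites in one library and measuring them in the other keeps the measured library apart from the one that chose the sites, although the pairing still used both. Paired peaks that were sharp in replicate 1 had a median narrowPeak width of 277 bp in replicate 2, compared with 353 bp for those under 0.8 in replicate 1. Their local densities in replicate 2 were 3.58 and 5.01 tags per kb, and their distances to the nearest peak 8573 bp and 6209 bp. Peaks chosen in replicate 2 had widths of 303 bp and 390 bp in replicate 1, local densities of 6.33 and 8.27 tags per kb, and distances of 6072 bp and 4641 bp. All 3 differences kept their direction and were smaller than with both replicates choosing. The mean ratios for tags and fold enrichment were 0.919 and 0.924, in place of 0.977 and 1.03. The mean width ratio was 0.781 in place of 0.610. The 2 ratios also differ in how strict the choice was. Replicate 1 alone chose 5591 sharp sites and replicate 2 alone 7734, with median fractions of 0.842 and 0.8385 in the other replicate. With choice and measurement in the same replicate, over all its BED peaks, the width ratio was 0.712 in replicate 1 and 0.725 in replicate 2.

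Input DNA was examined next, since its tags did not enter the focus fraction. Most sharply focused sites had little input. No input tag fell in the window at 48.3% of them in replicate 1 (95% Wilson interval, 45.6% to 51.0%) and 48.4% in replicate 2 (45.8% to 51.1%), compared with 48.3% and 47.4% at less focused sites. The means were 0.891 and 0.939 input tags per window, and 0.833 and 0.864 at less focused sites. Both windows of a pair were set against the same input library, so the similarity between replicates is not replication of the input. At least 4 input tags in either window were present at 46 sharply focused sites, or 3.40% (2.56% to 4.50%). This compares with 2.60% of all pairs and with 3.03% of less focused sites (2.75% to 3.33%).

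The highest fractions were different in this respect. Of the 1354 sites, 10 overlapped an input DNA peak, or 0.739% (0.402% to 1.35%), compared with 6 of the 13320 less focused sites, or 0.0450% (0.0206% to 0.0982%), and with 0.0413% of all pairs. Of the 10, 5 had a fraction of 0.95 or more in both replicates, a level that only 21 sites reached. The single highest was on chromosome X from 58561308 to 58561515 (hg19), with fractions of 0.983 and 0.978, 57 and 45 ChIP tags, and 13 and 17 input tags in the windows of replicates 1 and 2. A site on chromosome 2 from 92275844 to 92276051 had the most ChIP tags of all sharply focused sites, 84 and 76, with 22 and 26 input tags. Its fractions were 0.966 and 0.987, and its fold over input was 6.77 and 8.55. Sites on chromosome 17 from 22261493 to 22261700 and on chromosome 16 from 46395322 to 46395529 had 16 and 20 input tags and 20 and 21 input tags, and only the former overlapped an input peak. All 4 of these positions lacked a narrowPeak peak in replicate 1, and only that on chromosome 2 had one in replicate 2. These positions were picked out after their values were seen.

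The remaining sites of this extreme had few input tags. Of the 21 sites with 0.95 or more in both replicates, 13 had fewer than 4 input tags in each window. They held 19 to 40 tags in replicate 1 and 15 to 24 in replicate 2, all were on a narrowPeak peak in both replicates, and their fold over input ranged from 17.7 to 141.87 in replicate 1 and from 18.5 to 140.36 in replicate 2. Their narrowPeak widths had medians of 291 bp and 303 bp, with 1 broad exception on chromosome 17 from 16913925 to 16914132, at 1574 bp and 1356 bp. An example on chromosome 11 from 63949075 to 63949282 had 24 tags in each replicate, fractions of 0.96 and 0.96, no input tag, and widths of 277 bp and 251 bp. The 8 sites with at least 4 input tags in a window held 23 to 84 and 24 to 76 ChIP tags. Across all sharply focused sites, the 46 with at least 4 input tags had a median fold over input of 7.92 and 8.34, compared with 53.2 and 58.5 at the other 1308. Input tags were worked out from this fold and the tag count, so the difference follows from the split and is not a separate result. Without these 46, the ratios of width, local density and distance to the nearest peak were 0.609, 0.594 and 1.61. A narrowPeak peak was absent in both replicates at 17 of the 46 and at 9 of the 1308.

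**Figure D5:**
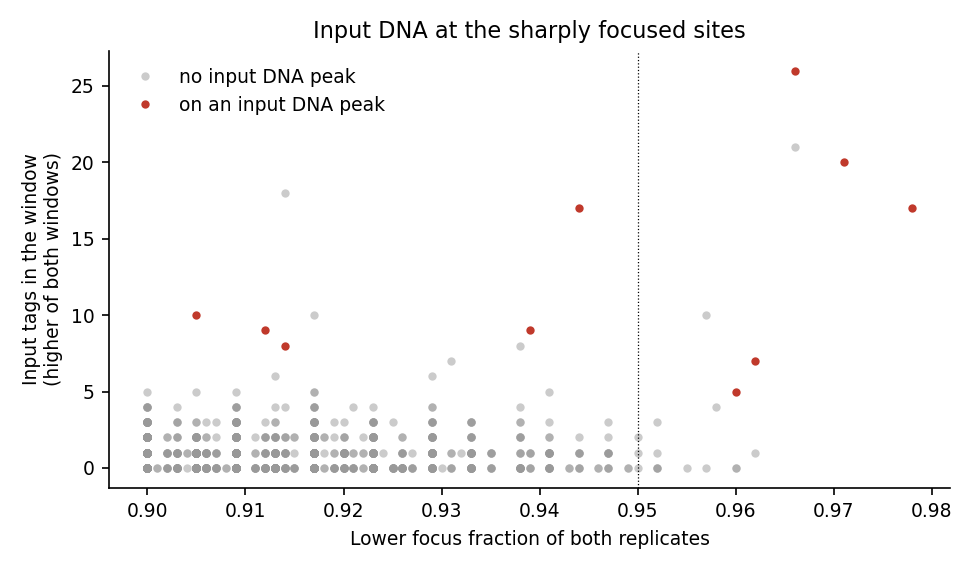
Input DNA tags in the peak window (vertical axis, the higher of both windows) by the lower focus fraction of both replicates (horizontal axis) for the 1354 sharply focused sites, of which the 10 on an input DNA peak are red. The dotted line marks 0.95, beyond which 8 of 21 sites have at least 4 input tags in a window.

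The sharply focused sites with the most tags that overlapped no input peak are described individually. Their positions are in hg19, the build that the labels name, and are those of the replicate 1 window. No annotation of that build was used here, so the genes at these positions were not analysed. The strongest by the lower-of-both tag count was on chromosome 3 from 113415570 to 113415777. It had 81 tags in replicate 1 and 64 in replicate 2, or 66.2 and 86.3 tags per 10000000, with fold enrichments of 41.7 and 39.8. Its fractions were 0.915 and 0.97 and it had 0 input tags. Its narrowPeak width differed between replicates more than at any other of the 10, at 772 bp and 371 bp.

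The site on chromosome 8 from 73920892 to 73921099 had 76 and 64 tags and fractions of 0.907 and 0.931. Its peak centres were 2 bp apart, the closest agreement of the 10, and its widths were 394 bp and 404 bp. Next was a site on chromosome 2 from 74756934 to 74757141, with 64 and 60 tags, fractions of 0.906 and 0.901, and a nearest peak about as far away in both lists, at 19784 bp and 19094 bp. A site on chromosome 9 from 95055995 to 95056202 had 59 and 55 tags, and widths of 530 bp and 424 bp. All of these had 0 input tags in both windows.

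On chromosome 1, the site from 9779262 to 9779469 had 68 and 54 tags and fractions of 0.923 and 0.934. The lower of these was the highest such value among the 8 named sites without input tags. Another on that chromosome, from 6639899 to 6640106, had 68 and 53 tags and was isolated, with the nearest peak 21360 bp and 21330 bp away. In contrast, some of the strongest sites lay in dense surroundings. That on chromosome 10 from 112116382 to 112116589 had 68 and 52 tags, and its local density of 33.7 and 25.6 tags per kb was the highest of the 10. On chromosome 14, the site from 73708280 to 73708487 had 52 and 49 tags and another peak 805 bp and 850 bp away. That on chromosome 2 from 102602848 to 102603055 had 50 and 46 tags and a neighbour 677 bp and 629 bp away, the shortest distance of the 10.

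The site on chromosome 17 from 22020616 to 22020823 stood apart from the other 9. It had 47 tags in each replicate and fractions of 0.939 and 0.938, but 8 input tags in both windows and the lowest fold enrichments, 16.4 and 19.2. Its widths of 317 bp and 330 bp were the narrowest and its local density of 2.45 and 1.94 tags per kb was the lowest. Its nearest neighbour was 79659 bp and 239358 bp away. Over all 10 sites, the median widths were 416.5 bp and 405 bp, and the median distance between centres was 23 bp.

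For comparison, the strongest less focused site was on chromosome 17 from 41400925 to 41401132, with 245 and 201 tags, fractions of 0.661 and 0.721, and 33 input tags in each window. Its fold enrichments of 9.64 and 13.1 were below those of all 10 sharply focused sites. The next were on chromosome 20 from 45318268 to 45318475, with 120 and 85 tags, fractions of 0.782 and 0.794 and fold enrichments of 49.9 and 44.4, and on chromosome 1 from 171750482 to 171750689, with 92 and 84 tags and fractions of 0.794 and 0.78. The peak centres of the site on chromosome 20 were 133 bp apart and those of the site on chromosome 1 were 81 bp apart. For the site on chromosome 17 the distance was 15 bp, and it was at most 49 bp among the 10 sharply focused sites.

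Finally, the distribution over the genome was examined. Sharply focused sites made up between 1.24% of the pairs on chromosome 21 (6 of 484; 95% Wilson interval, 0.569% to 2.68%) and 3.28% on chromosome 11 (64 of 1953; 2.57% to 4.16%), against 2.43% over all pairs. After chromosome 21, the lowest share was on chromosome 4, with 55 of 2940 pairs, or 1.87% (1.44% to 2.43%). Distances among the sharply focused sites were not compared with those in an equal number of other pairs, so they are given as a description. The median distance from a sharply focused site to the nearest other one, on either side, was 520882 bp. Of the 1354 sites, 37 lay within 10 kb of another, and the shortest distance was 559 bp.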

How the data were processed

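Groups came from the sample titles. Input DNA and 2 ChIP replicates had peaks called by the authors per sample, not pooled. The study's methods name MACS, run in Strand NGS against input DNA. The aligner, the handling of duplicates and the caller of the BED lists were not given in the sources used here, and the BED columns have the order of a HOMER findPeaks table under displaced names, so they were read by position. In the deposited BED lists these are a score, tag counts, a signal per 10000000 tags, a scaled input signal, fold ratios, p-values and the focus fraction. The deposited narrowPeak lists give a fold ratio, −log10 p and q, and a score. All BED peaks had at least 4-fold enrichment over the local background, which limits local density at weak peaks.

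The labels name hg19. The last narrowPeak peak on chromosome 1 ended at 249228915, beyond the 248956422 bp of that chromosome in the hg38 reference at hand, which was therefore not used with these positions. E-box shares, start-site shares, genes and sequences were not analysed here. Positions are printed 1-based.

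BED peaks, 208 bp wide in replicate 1 and 212 bp in replicate 2, were paired by an overlap of at least 1 bp. The narrowPeak peak that held the BED centre, or else overlapped it most, was matched. Input tags were the tag count divided by the fold over input in units of 1 input tag, with 0.5 standing for 0. Of these quotients, 100% were within 5% of whole tags in both lists. Wilson intervals cover counting error only. Code was tested on simulated lists. Python 3.11.15, pandas 2.3.3, numpy 2.4.6 and scipy 1.17.1 were used. Named positions are the 10 sharply focused and 3 less focused sites with the highest lower-of-both tag count that overlapped no input peak. The sites, measures and rules were chosen with earlier results of these data known. The study describes its HA ChIP-seq results as biological replicates. The labels do not say whether the replicates came from separate cultures.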

Additional observations from a re-analysis of the deposited data

How the results depend on the processing

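Of the 68 values recomputed under alternatives, 28 stayed within their limits (a factor of 1.5 for the number of sites, the SD over both replicates for ratios, and the binomial interval for the distance between centres) and 40 moved. The ratios for width, local density and spacing kept their side of 1 under all of these. In 6 alternatives the ratios for tags or for fold enrichment, which are close to 1, crossed it. With a fraction of 0.95 or more there were 21 sites, and the ratios were 1.46 for tags, 0.653 for local density, 0.674 for width and 1.29 for fold enrichment, while at matched tags they were 0.577 for width and 1.93 for spacing, and centres were 13 bp apart. Against sites under 0.7 the ratios were 1.06 for tags, 0.545 for local density, 0.489 for width and 1.12 for fold enrichment, and at matched tags 0.472 for width and 1.83 for spacing. With at least 20 tags in both replicates there were 361 sites, with ratios of 0.931 for tags, 0.566 for local density, 0.514 for width, 1.22 for spacing and 0.946 for fold enrichment, and centres 17 bp apart. On narrowPeak peaks only, the ratios were 1.02 for tags and 0.585 for local density. Reciprocal overlap of 50% gave 0.627 for matched width. When sites were chosen and measured by a single replicate, their number was 8861 to 9084 and the ratios were 1 to 1.06 for tags, 0.684 to 0.714 for local density, 0.712 to 0.725 for width, 1.33 to 1.40 for spacing and 1.007 to 1.06 for fold enrichment. When they were chosen in one replicate and measured in the other, the ratios were 0.919 for tags, 0.740 for local density, 0.781 for width, 1.34 for spacing and 0.924 for fold enrichment. This last alternative, that without sites of at least 4 input tags and that with narrowPeak summits were chosen after the data were seen. The alternatives for E-box and start-site shares were not run, because no genome of the build of the lists was used. No paired analysis was possible because the design holds a single numbered group and the values come from no test. Spearman's rho of the fraction between replicates was 0.156 with fewer than 10 tags in the weaker replicate and 0.647 with at least 50.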
